A study of Homo sapiens with 10 samples.

Results

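The nuclear-encoded subunits of respiratory complex I were followed through 10 long-read libraries of C-to-U editing from 2 human cell lines. Members were the genes whose symbol starts with NDUFA, NDUFB, NDUFC, NDUFS or NDUFV followed by a digit, together with NDUFAB1. The NDUFAF assembly factors were left out of the rule. The rule found 38 genes among the 10631 genes with at least 1 edited coding position in any library. Of these, 24 were among the 7004 genes listed in HEK293T and all 38 were among the 9753 genes listed in MDA-MB-231. A further 62 symbols that match the rule in the gene table, mostly pseudogenes and antisense genes, were listed in no library.

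The libraries come from a study of Ribo-STAMP, in which the cytidine deaminase APOBEC1 is fused to the small-subunit ribosomal protein RPS2, so that mRNA held by ribosomes collects C-to-U edits. HEK293T cells, an embryonic kidney line, expressed Ribo-STAMP (n = 3) or APOBEC1 alone (n = 3), each induced with 1 ug/mL doxycycline for 72 h. MDA-MB-231, a line from a triple-negative breast carcinoma, carried Ribo-STAMP only, induced with the same doxycycline dose for 48 h. They were given 100 uM cobalt(II) chloride (CoCl2) for 48 h (n = 2) or left untreated (n = 2). Every group therefore carries doxycycline and an induced APOBEC1 construct, and no library of uninduced cells was analysed here. The kits and the induction times differ between the lines, so no test was made between them. Replicates are numbered in the labels, which leave unsaid whether each was a culture of its own. The p-values therefore reflect no more than the scatter among these libraries, and that scatter may be technical.

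Complex I takes electrons from NADH and passes them to ubiquinone while pumping protons across the inner mitochondrial membrane. Its arm in the matrix holds the N module, which oxidises NADH, and the Q module, which reduces ubiquinone. Its membrane arm has a proximal and a distal part. The subunits that carry out catalysis are conserved from bacteria, and some of them are encoded in mitochondrial DNA and translated on mitochondrial ribosomes. The many accessory subunits, together with the nuclear core subunits, are made on cytosolic ribosomes and imported. Hypoxia-inducible factors, which cobalt stabilises, are known to redirect carbon from respiration to glycolysis.

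The coding sites below show what was measured. They were picked after their values were seen: 7 are among the subunit positions with the most edited reads in MDA-MB-231, and the NDUFS5 position has the most edited reads of those listed only after CoCl2. Each window holds 21 bases of the GENCODE 29 transcript on GRCh38, 5′ to 3′ on the coding strand, with the edited cytidine and the base before it in capitals.
NDUFA11, chr19:5896511, minus strand: agaagcccgACgaccccctga
NDUFB8, chr10:100526549, minus strand: aaccgatgcACtggcacctag
NDUFB8, chr10:100529450, minus strand: cccagaagaACgggccgccgc
NDUFA9, chr12:4659130, plus strand: tcatgtttcACatctgaatgc
NDUFB2, chr7:140702953, plus strand: agttcttcaGCggactcatgt
NDUFA8, chr9:122144275, minus strand: cagcctgccACacatggcagc
NDUFA1, chrX:119873381, plus strand: ttgatcgttACtatgtgtcaa
NDUFS5, chr1:39028857, plus strand: agaatgtgcACatggaatcgg

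All 8 lie in coding exons, and in 7 of them the base before the edited cytidine is A. The NDUFA11 site was edited in 8 of 291 and 13 of 249 reads after CoCl2, and in 3 of 226 reads of untreated replicate 2, while untreated replicate 1 did not list it. The upstream NDUFB8 site, at chr10:100529450, was edited in 8 of 236 and 8 of 211 reads after CoCl2 and in 1 of 120 reads of untreated replicate 2. The NDUFS5 site was edited in 5 of 206 and 6 of 179 reads after CoCl2 and was listed in neither untreated library. A listed position holds at least 1 edited read, and no position in the MDA-MB-231 files was listed in all 4 libraries, so a missing entry cannot be read as an unedited site. Edited reads were compared as sums over genes, which does not bring back positions that the files leave out. Sums and densities are therefore lower bounds, and the order of genes rests on the listed positions. In HEK293T, too, no position was listed in all 6 libraries.

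The files list reads on edited isoforms only, so their sum grows with the number of isoforms edited and does not measure sequencing depth. Listed isoforms held 157544 to 203094 reads in HEK293T Ribo-STAMP libraries and 81592 to 110526 in APOBEC1-only libraries. They held 1120240 and 1204721 in CoCl2 libraries and 1135886 and 1137589 in untreated libraries. On isoforms shared by all HEK293T libraries the relative depth was 1.15, 0.94 and 1.05 with Ribo-STAMP, against 1.07, 1.00 and 0.82 with APOBEC1 alone. All 10 MDA-MB-231 marker genes were listed in each MDA-MB-231 library and 0 to 2 of them in the HEK293T libraries. Of 7 HEK293T markers, 2 to 5 were listed in HEK293T libraries and 2 in MDA-MB-231 libraries. Among genes that hypoxia-inducible factors are known to drive, the coverage of BNIP3, a mitophagy receptor, was 699 and 547 reads after CoCl2, against 216 and 206 reads in untreated cells. GAPDH and LDHA also rose in limma. NDRG1, with 49.2 and 46.8 reads after CoCl2 against 72.3 and 46.3 reads untreated, had a log2 change of -0.27 and did not pass the test. Of the 7 genes listed to check the treatment these 4 were tested, and 3 were called higher, where 24.1% of all genes were. CA9, VEGFA and PDK1 were not tested.

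The first comparison sets editing with the ribosomal fusion against editing with APOBEC1 alone. The level of either construct is not known here, and its part in the difference was not tested. In HEK293T, subunit mRNAs were sparsely edited in every library, and 48.9 to 83.3% of a library's subunit edits lay in 1 gene. Ribo-STAMP libraries held 78, 67 and 92 edited reads in subunit genes, against 5, 6 and 6 in APOBEC1-only libraries. They listed 14, 11 and 17 subunit genes, against 2, 4 and 2. The subunits' share of all edited reads was 0.119, 0.132 and 0.155% with Ribo-STAMP and 0.143, 0.189 and 0.202% with APOBEC1 alone, so their counts followed those of the whole library.

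NDUFS1, the largest core subunit and a carrier of iron-sulfur clusters in the N module, took 50, 49 and 45 edited reads in Ribo-STAMP libraries, against 3, 3 and 5 in APOBEC1-only libraries. That was 64.1, 73.1 and 48.9% of all subunit edits with Ribo-STAMP, against 60, 50 and 83.3% with APOBEC1 alone. The other subunit genes together had 28, 18 and 47 edited reads with Ribo-STAMP, against 2, 3 and 1. The NDUFS1 groups do not overlap, and the gene was covered by a like number of reads in both, 104, 135 and 134 with Ribo-STAMP against 126, 99 and 95.

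**Figure D1:**
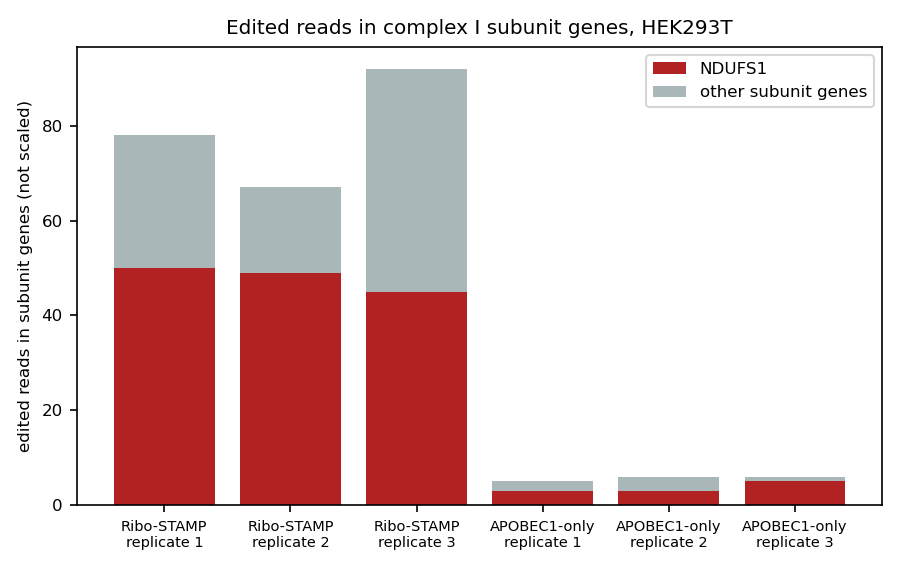
Edited reads in complex I subunit genes in each HEK293T library (vertical axis, unscaled reads), split into NDUFS1 and all other subunit genes, with the 3 Ribo-STAMP libraries left of the 3 APOBEC1-only libraries. Totals are 78, 67 and 92 with Ribo-STAMP and 5, 6 and 6 with APOBEC1 alone, and NDUFS1 is the largest single contributor in the Ribo-STAMP libraries.

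Scaled to depth, the edited reads of NDUFS1 averaged 46.1 ± 5.04 in Ribo-STAMP libraries and 3.97 ± 1.85 in APOBEC1-only libraries (SD, n = 3 each). The change was 3.30 ± 0.59 (SE) on the log2(value + 1) scale, with an adjusted p of 1.19e-06 in limma over 654 genes. It was the 1 subunit with enough edited reads to be tested. Of all genes tested, 99.7% were called higher and 0.153% lower, with a median change of 3.76. NDUFS1 met the filter on edited reads through the Ribo-STAMP libraries alone. A gene that enters this way could hardly come out lower, so the call of NDUFS1 is no independent support. How far the 99.7% rests on such genes was not tested. With no filter 2267 of 7004 genes were called higher and 0 lower, and 6527 were positive. Per 100 covering reads, NDUFS1 had 53.3, 34.5 and 33.6 edits with Ribo-STAMP, against 1.85, 3.03 and 5.26 with APOBEC1 alone, a log2 difference of 3.47 ± 0.46 in limma (adjusted p = 6.83e-06). On this measure 95.7% of 392 genes were called higher, and the median was 3.47. Per covering read the increase at NDUFS1 was thus near that of the median gene, and in edited reads it was below it. With TMM scaling of edited reads its change was -0.39 (limma adjusted p = 0.671), against a median of 0.75 with 512 of 654 genes positive. With each library centred on its median gene the editing difference was 0.10 (limma adjusted p = 0.868), against a median of 0.10.

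The edits of NDUFS1 fell on 90 positions, of which 80 were listed with Ribo-STAMP only, 7 with APOBEC1 alone only and 3 in both groups. Over all genes a Ribo-STAMP library listed 39385 to 49078 positions and an APOBEC1-only library 2791 to 3308. The highest number of edited reads at 1 position was 5, 2 and 3 in the Ribo-STAMP libraries and 1, 1 and 2 in the APOBEC1-only libraries. Of the 24 subunits listed in HEK293T, 23 were listed in a Ribo-STAMP library and 6 in an APOBEC1-only library, among them NDUFA9, NDUFA10, NDUFC2, NDUFS1 and NDUFV1. A Ribo-STAMP library listed 4495 to 5037 genes of any kind and an APOBEC1-only library 1522 to 1832. The splits by group were not counted over all genes, so they do not show whether the members differ from other genes. NDUFA5, NDUFA9, NDUFA10 and NDUFS1 were among those listed in all 3 Ribo-STAMP libraries. The other 14 members were not listed in HEK293T, which at so few edited reads does not show that their mRNA was unedited.

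The second comparison asks how subunit mRNAs and their editing differ after CoCl2. In MDA-MB-231 the subunits took a larger share of the reads after CoCl2. They held 0.490 and 0.491% of the reads on listed isoforms after CoCl2, against 0.291 and 0.361% in untreated cells. They held 0.723 and 0.711% of all edited reads after CoCl2, or 1248 and 1106 edited reads, against 0.277 and 0.430%, or 491 and 683 edited reads, in untreated cells. On both measures the groups do not overlap, and untreated replicate 1 was the lowest library.

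Coverage per gene, the number of reads on isoforms listed in all 4 libraries after TMM scaling, served as a stand-in for mRNA abundance. These are bulk cultures, so a change in RNA per cell and a change in the make-up of the culture cannot be told apart. Of the 38 members, 34 reached the minimum mean coverage of 10 reads. In limma 27 of them were higher after CoCl2 and 1 was lower, where 24.1% of the 5673 genes tested were called higher and 19.4% lower. The median change of the members was 0.83 on the log2(value + 1) scale, against -0.05 over all genes. In 31 members both CoCl2 libraries lay above both untreated libraries and in 2 both lay below, where 38.7% and 39.5% of all genes did so. Adjusted p-values of the 27 ran between 0.00169 and 0.0484.

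Length moved with this result. The members' annotated transcripts had a median length of 887 bases, against 2522 bases over all genes, and across all genes the log2 change fell by 0.52 for each doubling of length. The same slope was -0.29 between the untreated libraries, replicate 2 minus replicate 1, and 0.00 between the CoCl2 libraries. In 29 of the 34 members untreated replicate 1 was lowest, untreated replicate 2 next and both CoCl2 libraries highest. Among the 2846 other genes with transcripts of 610 to 2581 bases, which spans all but the 4 shortest and the 4 longest members, 40.8% were called higher and the median change was 0.52. With each library's trend on transcript length taken out, 7 members were higher and 2 lower, where 9.2% of all genes were higher and 7.32% lower, and the members' median became -0.03. With the trend on coding length taken out, an alternative chosen after seeing the data, 8 were higher and 1 lower, where 11.7% and 11.1% of all genes were, and the median was 0.22. NDUFA9, NDUFA10, NDUFV1 and NDUFV3 were among the members called higher under all 3 fits. Without CoCl2 replicate 1 or without replicate 2 no member was called in limma (13 and 14 had an unadjusted p under 0.05), and at most 2 genes of any kind were called higher, while the members' median stayed at 0.79 to 0.83.

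**Figure D2:**
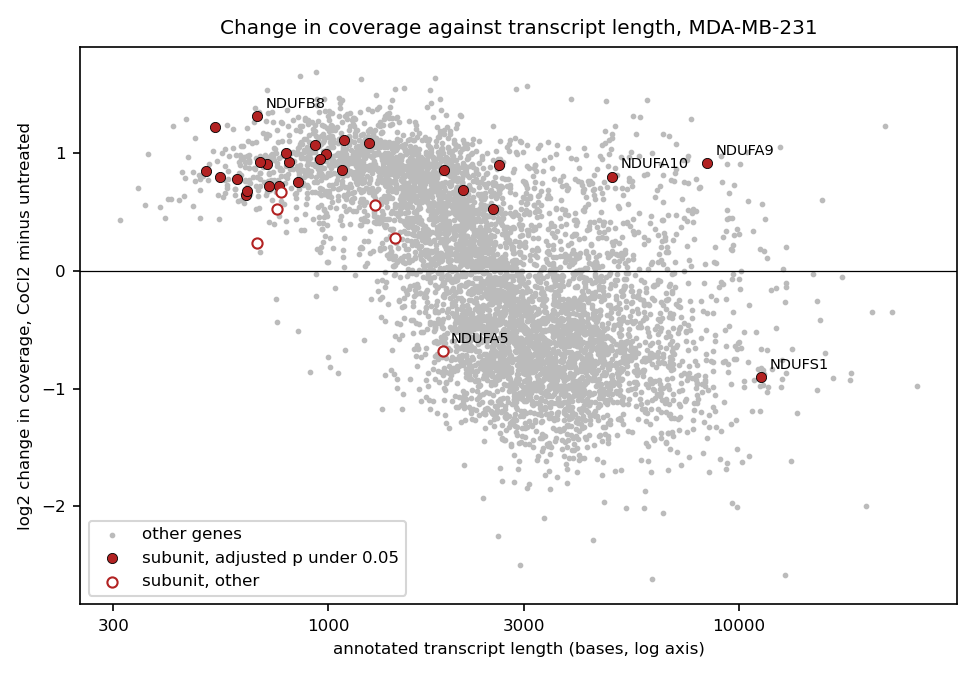
Log2 change in coverage, CoCl2 minus untreated (vertical axis), against annotated transcript length in bases (log axis) for all genes tested (grey) and for 33 of the 34 subunit genes of MDA-MB-231 (red, filled where the adjusted p was under 0.05). The cloud of all genes slopes down with length, and most subunits sit at short lengths above 0, while NDUFA9 and NDUFA10 are long and above 0 and NDUFS1 is the longest and below 0.

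In the N module 8 of 9 tested members were called higher and 1 lower, where 24.1% and 19.4% of all genes were, with a median change of 0.86. With the transcript-length trend taken out 2 were called higher and 0 lower, where 9.2% and 7.32% of all genes were. The module's median was then -0.0070. NDUFV1, which binds NADH and the flavin, had 440.3 and 406 covering reads after CoCl2, against 221 and 246 in untreated cells (log2 change 0.86 ± 0.20, limma adjusted p = 0.004). Its partner NDUFV2, an iron-sulfur protein, had 258 and 213 reads after CoCl2, against 105 and 118 untreated. The groups lay well apart for both, and NDUFV1 kept its call with either length trend taken out.
NDUFS1 went the other way, with 33.8 and 31.5 reads after CoCl2, against 80.8 and 47.2 untreated (log2 change -0.90 ± 0.32, limma adjusted p = 0.0288). The groups do not overlap, but the untreated libraries differ from each other by more than untreated replicate 2 differs from the CoCl2 libraries. NDUFS1 has the longest annotated transcripts of the members, at 11333 bases, and with the transcript-length trend taken out its change was -0.40 (adjusted p = 0.306).
Among the accessory N-module subunits, NDUFV3 had 134 and 157 reads after CoCl2, against 74.2 and 80.3 untreated. NDUFS4, needed for the stability of the N module, had 96.3 and 65.3 reads after CoCl2, against 39.9 and 42.5 untreated. NDUFS6, which binds zinc, had 188 and 149 reads after CoCl2, against 81.8 and 104 untreated. These 3 rose by 0.86 to 0.93 on the log2 scale. NDUFA2 had 194 and 199 reads after CoCl2 against 84.6 and 125 untreated. NDUFA12 had 140.3 and 132 reads after CoCl2 against 73.2 and 97.3 untreated. NDUFA7 had 46.1 and 58.7 reads after CoCl2 against 28.5 and 31.2 untreated. In all of them both CoCl2 libraries lay above both untreated libraries, and of the 6 accessory subunits only NDUFV3 was still called with a length trend taken out.

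In the Q module 5 of 6 members were called higher, where 24.1% of all genes were, with a median change of 0.98. With the transcript-length trend taken out 2 were called higher and 1 lower, where 9.2% and 7.32% of all genes were. The module's median was then 0.20. NDUFS7, a core subunit which carries the iron-sulfur cluster next to the ubiquinone site, had 270.3 and 231 reads after CoCl2, against 94.1 and 139.8 untreated (1.12 ± 0.24, limma adjusted p = 0.00241). Both CoCl2 libraries lay above both untreated ones, and the call was kept with the coding-length trend taken out but not with the transcript-length trend.
The core subunit NDUFS8, another iron-sulfur protein, had 335 and 249.6 reads after CoCl2, against 114 and 180.4 untreated. The core subunit NDUFS3 had 72.7 and 63.1 reads after CoCl2, against 35.2 and 34.0 untreated. Both rose, by 1.01 and 0.95 on the log2 scale, and neither was called once a length trend was taken out.
NDUFA9, an accessory subunit at the junction with the membrane arm, had 293 and 278 reads after CoCl2, against 133 and 170.0 untreated (0.92 ± 0.22, limma adjusted p = 0.00416). Its annotated transcript is the second longest of the members, and its change was 1.42 with the transcript-length trend taken out and 0.82 with the coding-length trend taken out, both called. NDUFA5 was the exception in the module, with 96.3 and 83.8 reads after CoCl2, against 206 and 101 untreated (-0.68, limma adjusted p = 0.058). Its value in untreated replicate 1 stands apart from the other 3 libraries, and with the length trend taken out, transcript or coding, it was called lower (-0.97 and -1.33).

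**Figure D3:**
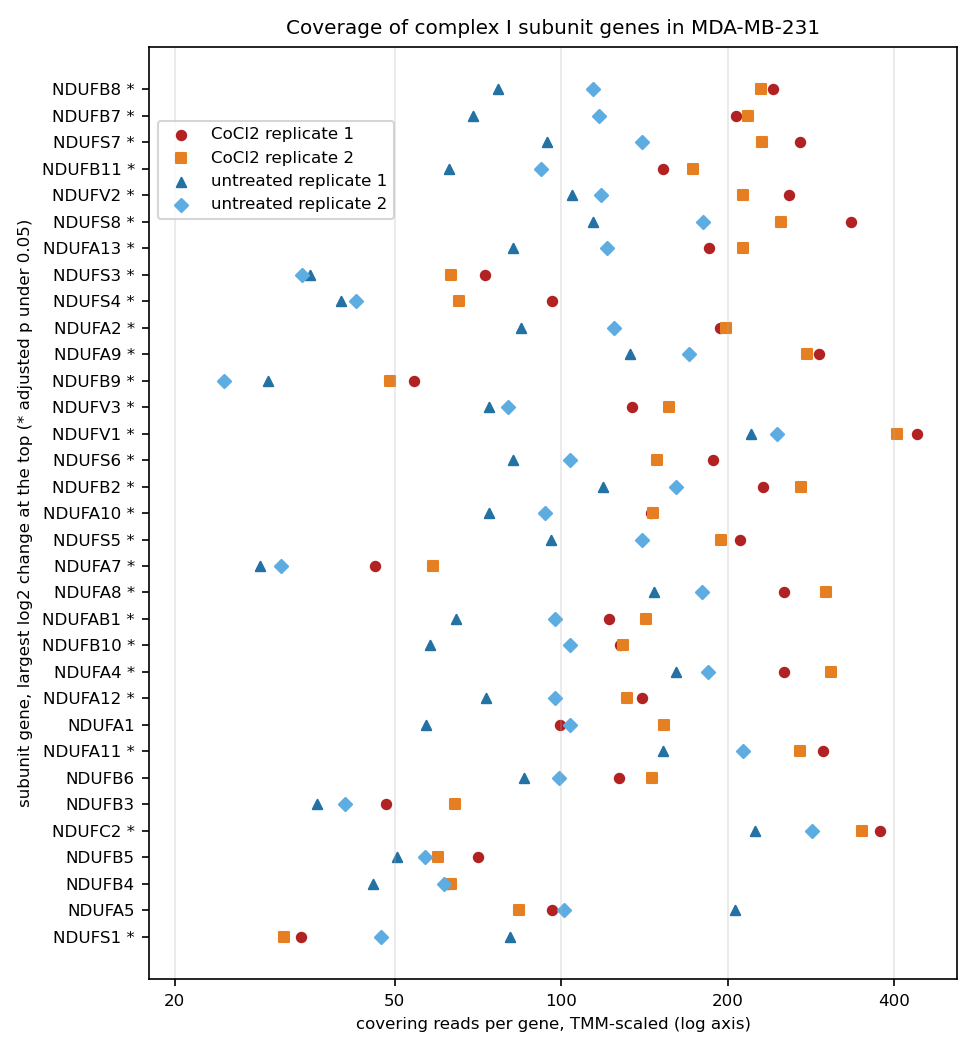
TMM-scaled covering reads (horizontal log axis) of 33 of the 34 tested subunit genes in each of the 4 MDA-MB-231 libraries, 1 row per gene. For most genes the CoCl2 points lie to the right of both untreated points, with untreated replicate 1 leftmost, and NDUFS1 and NDUFA5 show the reverse.

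In the proximal membrane arm 6 of 7 tested members were called higher, where 24.1% of all genes were, with a median change of 0.76. With the transcript-length trend taken out 2 were called higher and 0 lower, where 9.2% and 7.32% of all genes were. The arm's median was then -0.16. NDUFA13, a subunit that spans the membrane, had 185 and 213 reads after CoCl2, against 81.8 and 121 untreated. NDUFS5, a subunit on the intermembrane-space face, had 211 and 195 reads after CoCl2, against 96.0 and 139.8 untreated. NDUFA10, which resembles a nucleoside kinase, had 145 and 147 reads after CoCl2, against 74.2 and 93.5 untreated. These rose by 0.80 to 0.99 on the log2 scale, and NDUFA10 was also called in both fits with a length trend taken out. NDUFA8 had 253 and 301 reads after CoCl2 against 147 and 179.9 untreated. NDUFA11 had 298 and 270.3 reads after CoCl2 against 153 and 213 untreated. NDUFC2 had 377 and 350.2 reads after CoCl2 against 224 and 284 untreated. All of these separate by group. NDUFA1 was the 1 member of all 34 whose groups overlapped, with 99.3 and 153 reads after CoCl2 against 57.0 and 104 untreated.

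The distal membrane arm had the largest rise of a single member and the most members that missed the test. Here 6 of 10 tested members were called higher, where 24.1% of all genes were, and all 10 changes were positive, with a median of 0.79. With the transcript-length trend taken out 0 were called higher and 1 lower, where 9.2% and 7.32% of all genes were. Then 3 of the 10 changes were positive, and the arm's median was -0.16. NDUFB8 averaged 236 ± 8.60 reads after CoCl2 and 95.6 ± 26.3 untreated (SD, n = 2 each), from 242 and 229.5 after CoCl2 and 77.0 and 114 untreated. Its log2 change was 1.32 ± 0.24 (limma adjusted p = 0.00169), the largest of the 34, and 0.33 with the transcript-length trend taken out (adjusted p = 0.224). With the coding-length trend taken out it was 0.81 and still called (adjusted p = 0.0186). NDUFB7 had 207 and 218 reads after CoCl2, against 69.4 and 117 untreated, and NDUFB11 had 153 and 173 after CoCl2, against 62.7 and 92.1 untreated. NDUFB7 lies on the intermembrane-space side of the membrane arm. In both genes the CoCl2 libraries lie above the untreated ones, and neither was called once a length trend was taken out.
NDUFB2 had 231 and 272 reads after CoCl2 against 119 and 161 untreated. NDUFB10 had 128 and 129 reads after CoCl2 against 58.0 and 104 untreated. NDUFB9 had 54.3 and 48.9 reads after CoCl2 against 29.5 and 24.6 untreated. These 3 rose by 0.72 to 0.91 on the log2 scale. None of the 3 was called higher once a length trend was taken out, and all 3 changed sign with the transcript-length trend taken out. NDUFB3, NDUFB4, NDUFB5 and NDUFB6 did not pass the test, with changes of 0.24 to 0.56. The lowest of them was NDUFB4, with 62.5 and 63.1 reads after CoCl2 against 45.6 and 61.4 untreated.

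The symbol family also holds genes that were assigned to none of these modules here. NDUFAB1, the mitochondrial acyl carrier protein, had 122 and 142 reads after CoCl2, against 64.6 and 97.3 untreated, and rose by 0.73. NDUFA4, named as a complex I subunit but now counted with cytochrome c oxidase, had 253 and 308 reads after CoCl2, against 162 and 184 untreated, and rose by 0.69. Both separate by group. With the transcript-length trend taken out NDUFA4 was still called higher, and the change of NDUFAB1 reversed. With the coding-length trend taken out neither was called higher, and the change of NDUFA4 reversed. Of 19 assembly factors, which build the complex without staying in it, 15 were tested, 9 rose and 0 fell, with a median of 0.74, where 24.1% of all genes were called higher. With a length trend taken out, transcript or coding, 3 were called higher, where 9.2% and 11.7% of all genes were. The 7 subunits encoded in mitochondrial DNA were represented by 4 genes, of which 0 were called in limma, 0 had an unadjusted p under 0.05, and whose median was -0.08. MT-ND4 had 896 and 778 reads after CoCl2, against 763 and 928 untreated. With the transcript-length trend taken out all 4 were called lower, with changes of -0.68 to -0.96, and with the coding-length trend taken out none was called.

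Editing per covering read sets the listed edits of an mRNA against its coverage. It need not be free of abundance, since positions edited in all 4 libraries are missing. Whether this loss differs between the groups was not tested. The estimate was above 0 in most subunits, and no gene of any kind passed the test. In limma 0 of the 34 members and 0% of all 5673 genes were called, and 4 members had an unadjusted p under 0.05. On simulated data this test made no correct call even for large changes, so the absence of calls says nothing about whether editing differed. A fit with precision weights did call large simulated increases. With precision weights, an alternative chosen after seeing the data, 0 members were called, where 0.229% of all genes were higher and 0.0176% lower. In that fit 7 members had an unadjusted p under 0.05. Neither count at an unadjusted p has a share over all genes beside it. The difference was positive in 30 of the 34 members and in 3822 of all 5673 genes. The members' median was 0.42 on the log2 scale, against 0.20 over all genes. The members' median was 0.26 without untreated replicate 1 and 0.69 without untreated replicate 2. It was 0.22 with libraries centred on the median gene, 0.14 with the transcript-length trend taken out and 0.15 with the coding-length trend taken out. Both CoCl2 libraries lay above both untreated libraries in 17 members and below in 0, where 30.1% of all genes lay above and 9.64% below.

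The largest difference was at NDUFS5, with 9.71 and 16.2 edits per 100 covering reads after CoCl2, against 1.98 and 4.73 untreated (1.86 ± 0.41, limma adjusted p = 0.517). NDUFC2 had 8.68 and 12.1 edits per 100 reads after CoCl2, against 2.97 and 7.97 untreated, and NDUFB3 had 19.1 and 22.0 after CoCl2, against 10.5 and 9.30 untreated. In all 3 the groups do not overlap, and the spread between replicates was wide for the first 2. The most negative values were -0.40 at NDUFB7, with 11.9 and 7.0 edits per 100 reads after CoCl2 against 12.3 and 11.3 untreated, -0.32 at NDUFA5, with 10.6 and 5.19 against 9.22 and 10.3, and -0.29 at NDUFB10, with 23.2 and 15.1 against 24.6 and 20.9.
The core subunit NDUFV1 had 28.4 and 29.5 edits per 100 reads after CoCl2 against 27.6 and 29.2 untreated, a difference of 0.03 ± 0.25. NDUFS7 had 23.9 and 25.9 after CoCl2 against 12.1 and 16.2 untreated, and NDUFV2 had 25 and 25.5 after CoCl2 against 15.5 and 16.0 untreated. NDUFS1 had 66.7 and 89.7 after CoCl2 against 60 and 68.0 untreated. NDUFS7 and NDUFV2 separate by group, and NDUFS1 overlaps. NDUFS3 had 26.8 and 25.9 after CoCl2 against 13.5 and 27.8 untreated. NDUFS8 had 18.3 and 10.9 after CoCl2 against 11.7 and 13.1 untreated. In both the groups overlap.

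Edited reads per gene, scaled to depth, hold both abundance and editing. Of 33 members with enough edited reads, 9 were higher after CoCl2 and 0 lower, where 12.1% of the 4097 genes tested were called higher and 2.9% lower. The median change was 1.20, against 0.19 over all genes. Of the 33 members 31 were positive, as were 2320 of the 4097 genes. With the transcript-length trend taken out the members' median was 0.09, and 17 members and 2014 of the 4097 genes were positive. With the coding-length trend taken out the members' median was 0.33, and 22 members and 2092 of 4039 genes were positive. In 26 members the CoCl2 libraries lay above both untreated libraries and in 1 below, where 41.3% and 26.5% of all genes did so.
NDUFS5 had 20.5 and 31.4 edited reads after CoCl2, against 1.89 and 6.67 untreated (2.49 ± 0.61, limma adjusted p = 0.0322). It met the filter of 10 edited reads in 2 libraries through the CoCl2 libraries alone, as did NDUFB3, which was not called. A gene that enters this way could hardly come out lower, so the call of NDUFS5 is no independent support. NDUFB8 had 98.6 and 68.3 after CoCl2, against 13.2 and 31.4 untreated, and NDUFB11 had 30.8 and 46.6 after CoCl2, against 8.49 and 9.52 untreated. The groups lie far apart in all 3. NDUFS7 had 69.8 and 62.8 after CoCl2, against 14.2 and 23.8 untreated. NDUFV2 had 64.7 and 54.2 after CoCl2, against 16.0 and 19.0 untreated. NDUFA13 had 54.4 and 46.6 after CoCl2, against 9.44 and 25.7 untreated. These rose by 1.62 to 1.79 on the log2 scale. NDUFA12 had 31.8 and 43.3 after CoCl2, against 9.44 and 16.2 untreated. NDUFA9 had 92.4 and 83.4 after CoCl2, against 25.5 and 42.9 untreated. NDUFA10 had 69.8 and 71.5 after CoCl2, against 25.5 and 29.5 untreated. They complete the 9, with changes of 1.33 to 1.51.
NDUFV1 had 125 and 119 edited reads after CoCl2, against 61.3 and 72.4 untreated, and just missed the threshold (0.87, limma adjusted p = 0.0588). NDUFS1 was the member below, with 28.8 and 31.4 after CoCl2 against 49.1 and 32.4 untreated, and NDUFA5 had 11.3 and 5.42 after CoCl2 against 18.9 and 10.5 untreated. Neither passed the test. NDUFS3 had 19.5 and 16.3 after CoCl2 against 4.72 and 9.52 untreated. NDUFS8 had 61.6 and 27.1 after CoCl2 against 13.2 and 23.8 untreated. Both core subunits separate by group and were not called. With the transcript-length trend taken out NDUFA9 and NDUFA10 were called, where 2.25% of all genes were called higher and 1.44% lower. With the coding-length trend taken out no member was called, where 0.495% of all genes were higher and 0.817% lower. Of the members, 10 then had an unadjusted p under 0.05 in limma, a count with no share over all genes beside it. Without CoCl2 replicate 1 or without replicate 2 no member was called (13 and 15 at an unadjusted p under 0.05), and without untreated replicate 2 the count was 21.

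Edits were shared unevenly among the members. Of 3528 edited reads in the 4 libraries, NDUFV1, NDUFA9 and NDUFB8 took 23.2%, and the 10 most edited genes took 53.1%. NDUFV1 led in each untreated and each CoCl2 library, with 122 and 110 unscaled edited reads after CoCl2 and 65 and 76 untreated. At the other end NDUFA3, NDUFA6, NDUFB1 and NDUFC1 had under 10 edited reads over the 4 libraries. NDUFA6 was listed with 3 and 1 edited reads after CoCl2 and in neither untreated library.

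To compare genes with each other, edits were counted per 1000 covered coding cytidines, which allows for both coverage and the number of cytidines. On this scale the members' median was 1.47 and 1.40 after CoCl2, against 0.97 and 1.25 untreated. The median over 5621 genes was 0.76 and 0.72 after CoCl2, against 0.63 and 0.65 untreated. Of the 34 members, 32 lay above the median of all genes. An isoform enters only if it was edited in all 4 libraries, which sets a floor that is higher for short coding sequences, and the members' coding sequences have a median of 468 bases. The part of this floor in the members' level was not tested. Across the 34 genes Spearman's rho with coding length was -0.28, as a description, since the genes share their libraries.

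The highest density was at NDUFA1, a small membrane subunit, with 5.67 and 4.61 edits per 1000 covered cytidines after CoCl2, against 2.50 and 5.45 untreated. NDUFB3 followed with 3.99 and 4.59 after CoCl2, against 2.19 and 1.94 untreated, and NDUFS4 with 3.34 and 3.76 after CoCl2, against 1.40 and 3.05 untreated. The groups separate for NDUFB3 and NDUFS4 and overlap for NDUFA1. The lowest were NDUFS8, with 0.89 and 0.53 after CoCl2 against 0.57 and 0.64 untreated, NDUFV3, with a mean of 0.71 over the 4 libraries, and NDUFV1, with 0.75 and 0.78 after CoCl2 against 0.73 and 0.77 untreated. NDUFV1 thus led in edited reads and was among the least densely edited. NDUFS1 had 1.55 and 2.09 after CoCl2 against 1.40 and 1.58 untreated.
By module the median was 1.69 and 1.66 after CoCl2 against 1.31 and 1.61 untreated in the distal membrane arm, and 1.52 and 1.84 after CoCl2 against 0.98 and 1.23 untreated in the proximal membrane arm. The distal arm was highest in every library but CoCl2 replicate 2, where the proximal arm was. The Q module was lowest of the 4 modules in each library, at 1.16 and 1.12 after CoCl2 against 0.70 and 0.96 untreated. As means over the 4 libraries, the 4 tested genes of mitochondrial DNA had 0.07 to 0.11 edits per 1000 covered cytidines, below each of the 34 nuclear members. Their mRNA is translated inside mitochondria. Among them MT-ND5 had 0.04 and 0.16 after CoCl2, against 0.09 and 0.06 untreated. In 27 of the 34 members the CoCl2 mean was above the untreated mean, in 17 both CoCl2 libraries were above both untreated libraries, and in 0 both were below. Over all 5621 genes those shares were 67%, 30.2% and 9.52%.

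**Figure D4:**
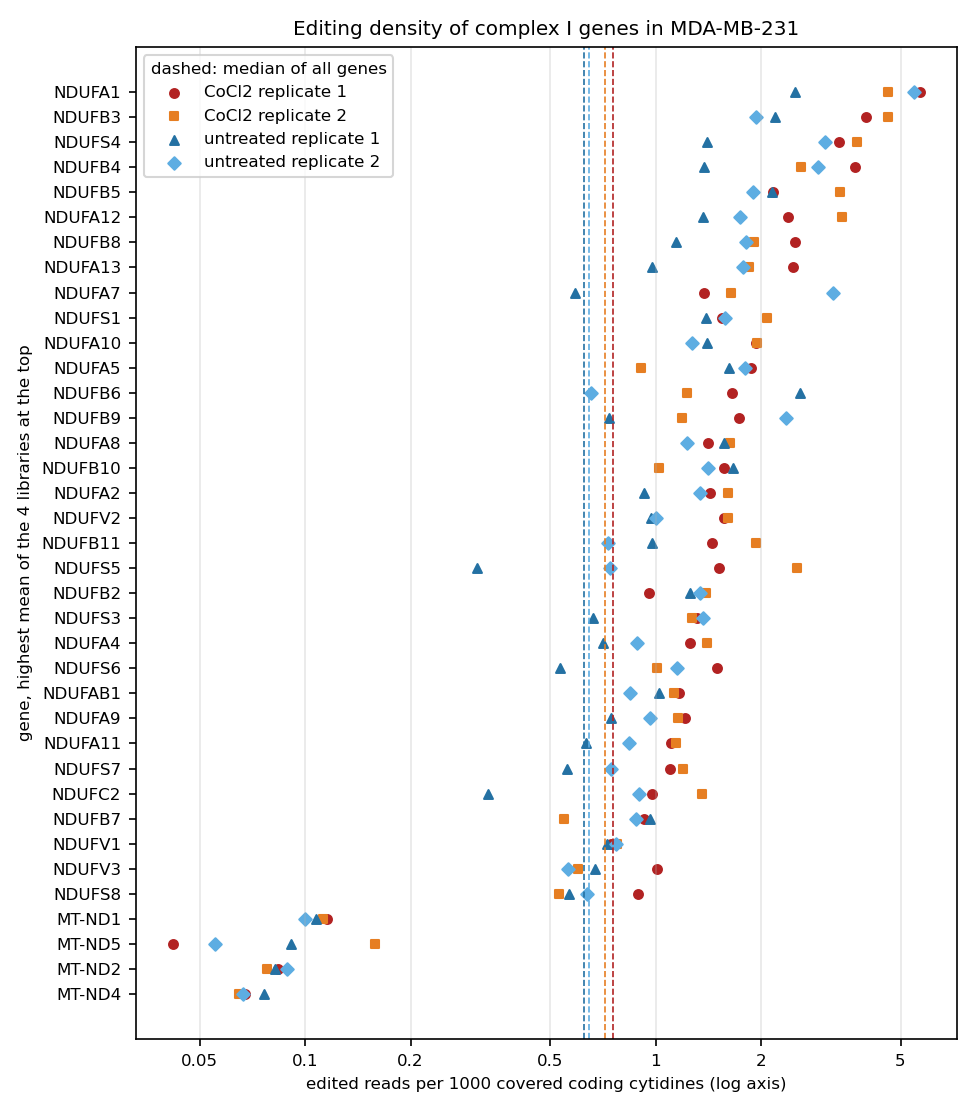
Edited reads per 1000 covered coding cytidines (horizontal log axis) in each of the 4 MDA-MB-231 libraries for 33 of the 34 nuclear subunit genes and 4 genes of mitochondrial DNA, ordered by their mean, with dashed lines at each library's median over all genes. NDUFA1 is highest, NDUFS8 lowest of the nuclear genes, and the MT-ND genes lie far to the left, with means over the 4 libraries of 0.07 to 0.11.

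The 38 genes were listed with 68 isoforms in MDA-MB-231, and 5 genes had at least 2 isoforms in all 4 libraries. In NDUFV3 the isoform with the short coding sequence of 324 bases had 18 and 8 edited reads after CoCl2, against 3 and 7 untreated. The isoform with the long coding sequence of 1419 bases had 18 and 15 after CoCl2, against 12 and 7 untreated. Per 1000 covered cytidines the short form had 4.03 and 1.53 after CoCl2, against 1.34 and 3.14 untreated, and the long form 0.58 and 0.46 after CoCl2, against 0.60 and 0.31 untreated. The short form was the more densely edited in all 4 libraries, and its level differed more between replicates than between groups. It took 35.1 and 37.5% of the coverage of the pair after CoCl2, against 29.5 and 27.1% untreated.
In NDUFB11, isoform ENST00000377811 had 1.74 and 2.25 edits per 1000 covered cytidines after CoCl2, against 0.93 and 0.68 untreated. Isoform ENST00000276062 had 0.68 and 1.14 after CoCl2, against 1.10 and 0.82 untreated. The first separates by group and the second does not, and the difference between them was not tested. Both NDUFV1 isoforms, which share the length of their coding sequence, lay between 0.67 and 0.81 in every library. Reads of 1 gene are split between isoforms by the authors' assignment, which the files do not describe.

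Across the members 1507 coding positions were edited, 692 of them with at least 2 edited reads over the 4 libraries. Counted once for each isoform they make 1620 entries, of which 1003 were listed in 1 library, 384 in 2 and 233 in 3. CoCl2 libraries alone listed 785 of them, untreated libraries alone 382, and both groups 453. Both CoCl2 libraries shared 305 entries and both untreated libraries 92, and the CoCl2 libraries also hold more subunit reads. Single libraries listed 812 and 731 member entries after CoCl2, against 405 and 522 untreated. For all genes they listed 126944 and 117104 after CoCl2, against 135299 and 123799 untreated. The split by group was not counted over all genes, so it does not show whether the members differ from other genes. A or U stood before the edited cytidine in 80.9 and 83.3% of the entries after CoCl2, against 83.0 and 81.2% untreated. Among the 8327 coding cytidines of 57 member isoforms it did so at 40.6%. All genes gave 80.5 and 80.3% after CoCl2, against 81.6 and 80.9% untreated, so the members' sequence context was that of the other genes to within 3 percentage points.

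**Figure D5:**
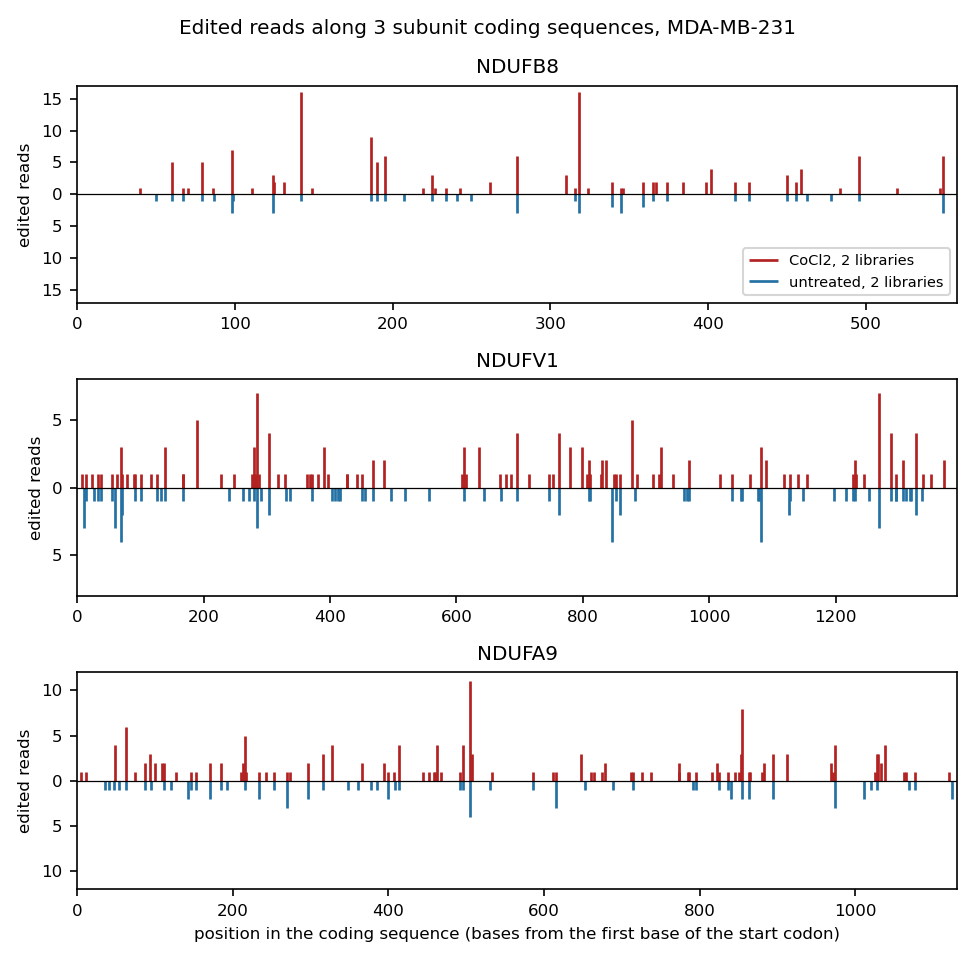
Edited reads at each coding position (horizontal axis, bases from the start codon) of NDUFB8, NDUFV1 and NDUFA9 in MDA-MB-231, with the 2 CoCl2 libraries summed above the line and the 2 untreated libraries summed below it. Edits run along the whole of each coding sequence, with isolated taller positions such as the NDUFB8 sites printed above.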

How the data were processed

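The authors deposited, for each library, a headerless list of edited coding positions per isoform, each with a pair of whole numbers read here from the values as the edited read count and the covering read count. For aligner, caller, filters and strand the sources used here give nothing. Per the submitters' processing notes the builds were hg19 and hg38. In MDA-MB-231, 97.5% of entries lay in the GRCh38 coding sequence of their own GENCODE 29 isoform and 100% of those placed were cytidines. In HEK293T 2.42% did, so no HEK293T position is given.

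A library's relative depth came from the isoforms shared by all libraries of its line, as the median ratio of their coverage. Coverage per gene summed the median coverage of such isoforms, with TMM scaling (trims of 30 and 5%). Editing per covering read was the log2 ratio of edited to unedited reads over all positions, with 0.5 added to each. It can pass 100 edits per 100 reads, since a read counts at each edited position. A gene was tested with 10 edited reads in 3 (HEK293T) or 2 (MDA-MB-231) libraries, or with a mean coverage of 10. Two-sided tests used limma 3.58.1 under R 4.3.3, allowing for an intensity trend, on log2(value + 1) or the log2 ratio, with Benjamini-Hochberg adjustment over all genes and a threshold of 0.05. Counts of members at an unadjusted p under 0.05 have no share over all genes beside them. Those counts do not show whether the members differ from other genes. A pseudocount of 1 understates changes of genes with few reads. Tables and figures used Python 3.11.15, pandas 2.3.3, Biopython 1.88 and matplotlib 3.10.9. The fits were tested on simulated data, where that of editing per covering read in MDA-MB-231 made no correct call even for large changes, although its estimates were close to those simulated. Reads need not be independent molecules.

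The members and lists were chosen with earlier results of these data known. The results of 1 member are not reported here by name, though it stays in the counts and medians. Per-library values are given for members past the threshold, the nuclear core subunits, the 3 most edited members and the 3 largest rises and falls. Alternatives changed scaling, centring, pseudocount, filters, positions or isoforms counted, length trend, test, replicate block and single libraries.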

Additional observations from a re-analysis of the deposited data

How the results depend on the processing

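In HEK293T the count of subunits called higher in edited reads, 1, became 0 with TMM scaling, 4 with no filter and 0 with positions of at least 2 edited reads, where no subunit was tested. In editing per covering read it became 0 with centring on the median gene. NDUFS1 in edited reads reversed to -0.39 with TMM scaling. All genes called higher numbered 25, 2267 and 174 in the first 3 settings, and 73 higher and 53 lower with centring. The causes of the changes given in these paragraphs were not tested.

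In MDA-MB-231 coverage the counts of 27 higher and 1 lower became 12 and 0 with all listed isoforms, 7 and 2 with the transcript-length trend taken out, and 8 and 1 with the coding-length trend taken out. Leaving out 1 library gave 0 to 29 higher and 0 to 2 lower: 26 and 0 without untreated replicate 1, 29 and 2 without untreated replicate 2, and 0 and 0 without either CoCl2 replicate. With the transcript-length trend taken out the change reversed at 16 of the 34 members, among them NDUFA2 (-0.0070), NDUFA7 (-0.22), NDUFA8 (-0.16), NDUFA11 (-0.35), NDUFA12 (-0.32), NDUFAB1 (-0.24), NDUFB2 (-0.18), NDUFB4 (-0.74), NDUFB9 (-0.059), NDUFB10 (-0.23), NDUFS4 (-0.054) and NDUFS5 (-0.22). With the coding-length trend it reversed at 7, among them NDUFA4 (-0.051), NDUFB4 (-0.38) and NDUFC2 (-0.12). All genes called numbered 782 higher and 287 lower with all isoforms, 522 and 415 with the transcript-length trend and 657 and 622 with the coding-length trend, against 1367 and 1102. Leaving out 1 library gave 0 to 1947 higher and 12 to 1857 lower.

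In edited reads the 9 higher became 0 with no filter, 0 with positions of at least 2 edited reads, 2 with the transcript-length trend and 0 with the coding-length trend, and 0 to 21 when 1 library was left out. All genes, 495 higher and 119 lower, gave 212 and 200 with TMM scaling, 0 and 0 with no filter, 21 and 9 with positions of at least 2 edited reads, 92 and 59 and then 20 and 33 with the length trends, and 0 to 1092 and 0 to 581 when 1 library was left out. With the transcript-length trend taken out 14 of the 33 members reversed, among them NDUFB10 to -0.80 and NDUFS8 to -0.13, and with the coding-length trend 11 did, among them NDUFB10 to -0.40 and NDUFS1 to 0.084.

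In editing per covering read 0 subunits were called in every setting, which shows no stability, since the intensity-trend test called no changed gene correctly on simulated data, and 13 genes were higher and 1 lower with precision weights. The sign reversed in 6 members with centring and in 7 with either length trend, among them NDUFS8 to -0.021, -0.13 and -0.080 and NDUFV1 to -0.16, -0.18 and -0.15 with centring, the transcript-length trend and the coding-length trend. Leaving out 1 library gave -0.11 to 0.87 at NDUFS3, -0.0074 to 0.074 at NDUFV1, -0.19 to 0.54 at NDUFS8, -0.79 to 0.15 at NDUFA5 and -0.58 to 0.014 at NDUFB10. The sign turned without untreated replicate 1 in NDUFS3 and NDUFV1, without CoCl2 replicate 1 in NDUFS8 and without CoCl2 replicate 2 in the others.

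Whether the replicate numbers pair the samples is not settled by the labels. Deviations of same-numbered libraries correlated at 0.09, 0.12 and 0.33 in HEK293T edited reads and at 0.13, 0.04 and 0.22 in HEK293T editing per read. Differently numbered libraries ran from -0.25 to 0.18 and from -0.17 to 0.07, with replicate 3 negative against the other numbers. In MDA-MB-231 same-numbered libraries correlated at -0.01 to 0.02. With the replicate number as a block, 27 subunits were higher and 2 lower in coverage, with 1305 of all genes higher and 1119 lower, and 16 subunits were higher in edited reads, with 783 genes higher and 305 lower. With 2 libraries a group the precision of every MDA-MB-231 value is limited by their number, and the coding-length and precision-weight alternatives were chosen after seeing the data.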

Other observations

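Edits in the members changed codons about as often as coding cytidines at large would. Of the 1507 edited positions 47.4% left the amino acid unchanged, 47.2% changed it and 5.31% made a stop codon, against 42.5, 51.3 and 6.17% over all 8327 coding cytidines of the members' isoforms. Of the sites printed above, the upstream NDUFB8 site and the NDUFA9, NDUFA8 and NDUFS5 sites change the amino acid, and the NDUFA11, NDUFA1 and NDUFB2 sites and the downstream NDUFB8 site do not.

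RefSeq promoters on GRCh38.p14, from 250 bases before to 50 after the start, were matched for 32 of the 39 genes on the subunit list. Searched on both strands, ACGTG, the core of the hypoxia-response element that also lies within the E-box CACGTG, was found in 9 of them (28.1%), among them NDUFB8, NDUFS3 and NDUFS7, against 21.6% of 27305 promoters. The ETS-type CCGGAAG was found in 5 (15.6%), against 10.7%, and the NRF1 motif in 2 (6.25%), NDUFA8 and NDUFB4, against 1.36%. These matches are descriptions of the letters in these windows.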
